A study of Mus musculus with 7 samples.

Results

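Condensin and cohesin subunits were followed in the RNA of C2C12 cells, a mouse muscle cell line, after 24 h with exosomes released by other C2C12 cultures. The 10 genes were Smc2, Smc4, Ncapd2, Ncapg, Ncaph and Ncapg2 of condensin, Smc1a, Smc3 and Rad21 of the cohesin ring, and Cdca5, which codes for the cohesin-binding protein sororin. They were chosen by name, with earlier results of these data known. Every non-control probe with such a gene name was used, which gave 1 probe per gene, or 10 of the 39429 probes and 10 of the 31829 gene names on the array. The donor cultures had received BSA (EXO-Post BSA, 4 arrays) or 0.5 mmol/l palmitate bound to BSA (EXO-Post Palm, 3 arrays), and the exosomes were collected 9 h after the palmitate was taken away. All recipient cells were of this single line in serum-free medium. The study describes them as differentiated myotubes, whereas GEO's cell type label reads myoblast, and cells kept without exosomes were not analysed here. From each sample, 100 ng of RNA was labelled with Cy3 and hybridised to a 1-colour array, and the samples are labelled as biological replicates. Nothing further says how far the cultures were separate, so p-values measure the spread between these arrays only.

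Condensin and cohesin are ring-shaped complexes built on SMC (structural maintenance of chromosomes) ATPases, which extrude loops of DNA. Condensin folds chromatids into compact rods when cells divide, and its condensin I and condensin II forms share SMC2 and SMC4 but differ in their other subunits. Cohesin holds sister chromatids together from S phase to anaphase and also forms chromatin loops in interphase and in cells that do not divide, and its ring subunits are made at all stages of the cell cycle. Genes of mitosis are held down in resting cells by the DREAM complex, whose MuvB part binds a promoter word known as the CHR, often near CCAAT boxes, which are bound by NF-Y.

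Stretches of promoter are shown for the genes on which the comparison turns, the condensin genes Smc2, Ncapd2 and Ncaph, the sororin gene Cdca5, and the ring genes Smc1a and Smc3 as the contrast. Each is the 150 bases that end at the base before the annotated start, from RefSeq on GRCm38.p6, written 5′ to 3′ on the gene's own strand. Capitals mark matches to the CHR (TTTGAA or TTCGAA), to CCAAT or to an E2F word (TTTGGCGC, TTTGCCGC, TTTCGCGC or TTTCCCGC), each searched on both strands. No matches to different words overlapped in these stretches.
Smc2: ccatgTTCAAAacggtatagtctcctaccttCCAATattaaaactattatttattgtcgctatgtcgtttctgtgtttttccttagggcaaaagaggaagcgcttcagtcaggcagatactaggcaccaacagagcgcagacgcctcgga
Ncapd2: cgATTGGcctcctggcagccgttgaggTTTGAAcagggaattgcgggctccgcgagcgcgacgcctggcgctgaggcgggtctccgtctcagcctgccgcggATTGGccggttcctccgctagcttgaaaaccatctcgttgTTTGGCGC
Ncaph: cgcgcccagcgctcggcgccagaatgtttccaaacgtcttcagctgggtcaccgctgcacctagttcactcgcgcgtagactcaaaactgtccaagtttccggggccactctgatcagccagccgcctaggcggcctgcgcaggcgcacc
Cdca5: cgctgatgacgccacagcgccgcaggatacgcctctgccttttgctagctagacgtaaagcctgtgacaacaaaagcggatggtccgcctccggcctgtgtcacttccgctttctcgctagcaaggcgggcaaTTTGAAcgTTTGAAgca
Smc1a: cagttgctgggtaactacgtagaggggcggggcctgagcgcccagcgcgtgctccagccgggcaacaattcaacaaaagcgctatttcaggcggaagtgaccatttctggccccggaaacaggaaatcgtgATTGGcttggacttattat
Smc3: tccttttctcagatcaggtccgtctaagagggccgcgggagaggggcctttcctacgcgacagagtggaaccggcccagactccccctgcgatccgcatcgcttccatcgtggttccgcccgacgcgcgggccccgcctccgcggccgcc
The stretches lie at chr4:52439071-52439220 on the plus strand for Smc2, chr6:125191587-125191736 on the minus strand for Ncapd2, chr2:127133955-127134104 on the minus strand for Ncaph, chr19:6084947-6085096 on the plus strand for Cdca5, chrX:152016278-152016427 on the plus strand for Smc1a and chr19:53600246-53600395 on the plus strand for Smc3. Over the whole window of 250 bases before and 50 after the start, a CHR word was found in 5 of the 8 members with an entry. These were Smc2, Ncapd2, Ncapg, Ncapg2 and Cdca5, and 19.2% of all 32851 promoters of that length held the word. Of the 22 other genes of the pathway with an entry, which are taken up below, 13 held it. They include Top2a and Mki67, which rose, and Hdac8 and Pds5b, which did not pass, so the word was not particular to genes that rose. Cdca5 had it at 17 and at 9 bases before the start, Ncapg2 at 18, Ncapg at 30, Ncapd2 at 123 and Smc2 at 145 bases before the start, with a further match 27 bases into the Smc2 transcript. Ncaph, Smc1a and Smc3 had no CHR word in the window, and Ncaph and Smc3 had none of the other words either. CCAAT was found in Smc2, Ncapd2, Ncapg and Smc1a, against 37.4% of all promoters, and an E2F word in Ncapd2, Ncapg, Ncapg2 and Smc1a, against 2.26%. Of the same 22 other genes, 14 held CCAAT and 3 an E2F word. A match is only a run of letters, and Smc4 and Rad21 were not analysed here for promoter words.

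The cells carried a strong muscle programme on every array. All 9 myotube markers, among them Acta1, Ckm, Myh1 and Myog, were well above background, and their summed signal was 615 to 812 times the array's 75th percentile with EXO-Post BSA and 596 to 704 times with EXO-Post Palm. Of 6 myoblast markers, Myf5 was above background on no array, and the summed signal was 7.02 to 10.2 with EXO-Post BSA and 8.66 to 12.4 with EXO-Post Palm. Between 48.5 and 70.3% of probes were well above background per array. The arrays stood on 4 slides. Slide 1 carried EXO-Post BSA replicates 1 and 2 and EXO-Post Palm replicate 1, slide 3 carried EXO-Post BSA replicate 4 and EXO-Post Palm replicate 3, and EXO-Post BSA replicate 3 and EXO-Post Palm replicate 2 were alone on theirs.

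Ncaph of condensin and Cdca5 rose 3.40-fold and 3.48-fold with EXO-Post Palm, and the other condensin genes tested were 1.52-fold to 2.81-fold higher without passing. Of the cohesin ring, Smc1a and Rad21 had nearly the same mean in both groups and Smc3 was 1.53-fold higher without passing. Thus 2 of the 9 members tested had an adjusted p under 0.05 by limma, both higher, where 0.533% of the 21589 probes tested passed in either direction with 0.463% higher and 0.0695% lower. That number of 115 probes moved with single arrays, to 7 without EXO-Post Palm replicate 1, 4 without replicate 3 and 228 without replicate 2, and to 61 to 69 with an EXO-Post BSA array left out. It was 0 without a probe filter, with a block on replicate number and by a t-test after Benjamini-Hochberg. At an unadjusted p under 0.05, 5 members were higher (4.85% of all probes tested, with 5.19% lower), namely Smc2, Ncapd2, Ncaph, Ncapg2 and Cdca5. In 5 of the 9 tested members, Smc2, Ncapd2, Ncaph, Smc3 and Cdca5, every EXO-Post Palm array lay above every EXO-Post BSA array, as in 5.4% of all tested probes. Ncapg was too dim to test and is described apart. The median difference over the 6 condensin genes was 1.35 on the log2 scale, or 1.47 without the dim Ncapg, and that over the 3 ring genes was 0.04, beside -0.02 over all tested probes. The difference between the families was not put to a test. In RNA from whole cultures, a change in the number of cells that express a gene and a change of RNA per cell cannot be told apart. Smc2, Ncapd2, Ncaph and Cdca5 are also in the gene list that the study drew from these same arrays, so that list is no independent evidence of their direction, and the same holds for Top2a, Mki67, Pttg1, Sgol1, Cenpe, Cenpl and Ccnd1 below.

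**Figure D1:**
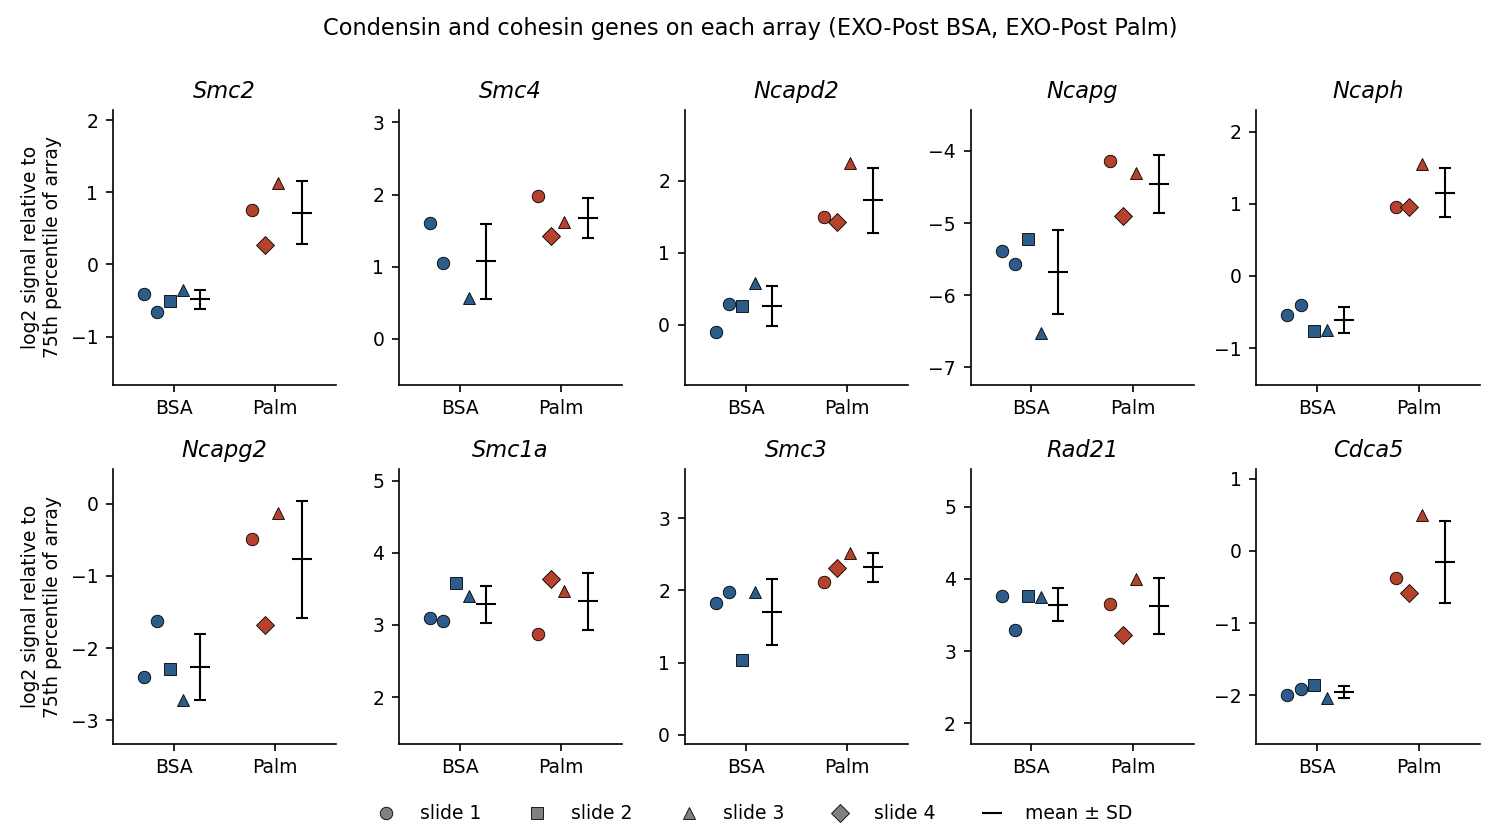
Log2 signal of the 10 genes on each array relative to the array's 75th percentile, with EXO-Post BSA in blue (BSA) and EXO-Post Palm in red (Palm), the slide as the marker shape, and the mean ± SD beside the points; all panels span the same range of log2 units. The EXO-Post Palm arrays lie above all EXO-Post BSA arrays for Smc2, Ncapd2, Ncaph, Smc3 and Cdca5, and for Ncapg among values near background, whereas the groups overlap for Smc4, Ncapg2, Smc1a and Rad21, and Smc4 has 3 EXO-Post BSA values.

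SMC2 and SMC4 are the ATPases shared by condensin I and II. Signals in this account are log2 intensities relative to the 75th percentile of the same array, so a value of 0 equals that percentile, and each probe is set only against itself. The Smc2 probe (chromosome 4 of mm9, 52501012 to 52501071) read -0.41, -0.66, -0.51 and -0.36 in EXO-Post BSA (replicates 1 to 4 in order, here and below) against 0.76, 0.26 and 1.13 in EXO-Post Palm (replicates 1 to 3). The groups did not overlap, and the 4 EXO-Post BSA arrays stood close together. The difference was 1.20 (95% interval 0.64 to 1.76, 2.30-fold, adjusted p = 0.101 by limma). The Smc4 probe (chromosome 3, 68838437 to 68838496) read 1.61, 1.05 and 0.56 on EXO-Post BSA replicates 1, 2 and 4 and 1.98, 1.43 and 1.62 with EXO-Post Palm. Its spot on EXO-Post BSA replicate 3 was marked as faulty by the scanner software and left out. The groups overlapped, with EXO-Post BSA replicate 1 near the middle of the EXO-Post Palm values, and the difference of 0.60 (interval -0.14 to 1.34) was within the spread (adjusted p = 0.59). With the marked spot kept, at 0.33, the difference was 0.79 (adjusted p = 0.474).

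Condensin I adds the HEAT-repeat subunits CAP-D2 and CAP-G and the kleisin CAP-H, which closes the ring and is coded by Ncaph. The Ncaph probe (chromosome 2, 126929625 to 126929684) read -0.53, -0.40, -0.76 and -0.74 with EXO-Post BSA and 0.96, 0.95 and 1.55 on the EXO-Post Palm arrays. The groups were far apart and EXO-Post Palm replicate 3 was the highest. Ncaph rose by 1.76 (interval 1.24 to 2.29, 3.40-fold, adjusted p = 0.0179 by limma; 2-sided exact permutation p = 0.0286, which 4 against 3 arrays cannot go under). Within slide 1 the difference was 1.43 and within slide 3 it was 2.30, and a block on slide gave 1.80 (adjusted p = 0.0669). Leaving out EXO-Post Palm replicate 1 (adjusted p = 0.0697) or replicate 3 (adjusted p = 0.0848) also took Ncaph out of the calls at 0.05, while leaving out any of the other 5 arrays did not.

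The Ncapd2 probe (chromosome 6, 125118012 to 125118066) read -0.10, 0.29, 0.26 and 0.58 with EXO-Post BSA and 1.50, 1.43 and 2.25 with EXO-Post Palm. The groups for this HEAT-repeat subunit did not overlap, and EXO-Post Palm replicate 3 was again the highest. The difference of 1.47 (interval 0.85 to 2.09, 2.77-fold) had an adjusted p of 0.0681 by limma. For Ncapg, which codes for CAP-G, the probe (chromosome 5, 46091679 to 46091738) exceeded background clearly on only 1 array of EXO-Post BSA and 2 of EXO-Post Palm, and it was therefore not tested. It read -5.38, -5.57, -5.22 and -6.53 with EXO-Post BSA and -4.15, -4.91 and -4.31 with EXO-Post Palm. These values lay near the lowest signal counted as well above background, which was -6.04 to -4.40 over the 7 arrays. The means differed by 1.22, in the direction of Smc2 and Ncapd2.

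Condensin II is nuclear throughout interphase and has its own subunits CAP-D3, CAP-G2 and CAP-H2. The Ncapg2 probe (chromosome 12, 117701714 to 117701773) read -2.40, -1.63, -2.29 and -2.72 with EXO-Post BSA and -0.49, -1.68 and -0.13 with EXO-Post Palm. EXO-Post Palm replicate 2 fell among the EXO-Post BSA arrays, and the other EXO-Post Palm arrays stood clear of them. The difference of 1.49 (interval 0.58 to 2.41, 2.81-fold) did not pass (adjusted p = 0.224), and it passed in the absence of that array (1.95, adjusted p = 0.0435). For the other genes of condensin II the differences were smaller, 0.73 for Ncapd3 (interval 0.08 to 1.38, adjusted p = 0.443) and 0.45 for Ncaph2 (interval -0.08 to 0.97, adjusted p = 0.571). A further probe for each gave 0.63 and 0.57, neither of which passed. The intervals of Ncapg2, Ncapd3 and Ncaph2 overlap, so no order among them is shown.

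The cohesin ring consists of SMC1A and SMC3, joined at their hinges, and the kleisin RAD21, which separase cuts at anaphase. The Smc1a probe (chromosome X, 148496427 to 148496486) read 3.10, 3.05, 3.59 and 3.40 with EXO-Post BSA and 2.88, 3.63 and 3.47 with EXO-Post Palm. The Rad21 probe (chromosome 15, 51794326 to 51794385) read 3.77, 3.30, 3.76 and 3.74 with EXO-Post BSA and 3.66, 3.23 and 4.01 with EXO-Post Palm. For both genes the EXO-Post Palm arrays fell on either side of the EXO-Post BSA arrays. The difference was 0.04 for Smc1a (interval -0.54 to 0.62, adjusted p = 0.97) and -0.01 for Rad21 (interval -0.58 to 0.55, adjusted p = 0.992), and its sign turned for either gene under other scalings and with single arrays left out. The intervals of Smc1a and Rad21 lie below that of Ncaph, which starts at 1.24, but overlap that of Smc4, and that of Smc1a also overlaps that of Ncapg2. The interval of Smc3, given below, overlaps that of Ncaph by a small margin. Any change of these ring genes inside their own intervals is within what the arrays allow.

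SMC3 is the subunit whose acetylation locks cohesin on DNA. The Smc3 probe (chromosome 19, 53719568 to 53719627) read 1.82, 1.98, 1.03 and 1.98 with EXO-Post BSA and 2.12, 2.32 and 2.52 with EXO-Post Palm. All EXO-Post Palm arrays were above all EXO-Post BSA arrays, by a small margin apart from EXO-Post BSA replicate 3, which was well below the rest. The difference of 0.62 (interval -0.02 to 1.25, 1.53-fold) was not past the threshold (adjusted p = 0.511), and without EXO-Post BSA replicate 3 it was 0.39 (adjusted p = 0.606). Within slide 1 it was 0.22 and within slide 3 it was 0.54.

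Sororin, the product of Cdca5, keeps cohesin on replicated chromatids by opposing the release factor WAPL, and unlike the ring it is made and destroyed with each division. The Cdca5 probe (chromosome 19, 6091709 to 6091768) is printed in 10 spots, and their means were -1.99, -1.91, -1.85 and -2.04 with EXO-Post BSA and -0.37, -0.58 and 0.50 with EXO-Post Palm. The EXO-Post BSA arrays spanned a narrow range, far below the EXO-Post Palm arrays. Cdca5 rose by 1.80 (interval 1.17 to 2.43, 3.48-fold, adjusted p = 0.0365 by limma; 2-sided exact permutation p = 0.0286). The difference was 1.59 within slide 1 and 2.53 within slide 3, and 1.99 in a model with a slide block (adjusted p = 0.054). The call held without EXO-Post Palm replicate 2 (adjusted p = 0.0233) but not without EXO-Post BSA replicates 1, 2, 3 or 4 (0.0903, 0.074, 0.0761 and 0.0732) or EXO-Post Palm replicates 1 or 3 (0.0989 and 0.0876).

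**Figure D2:**
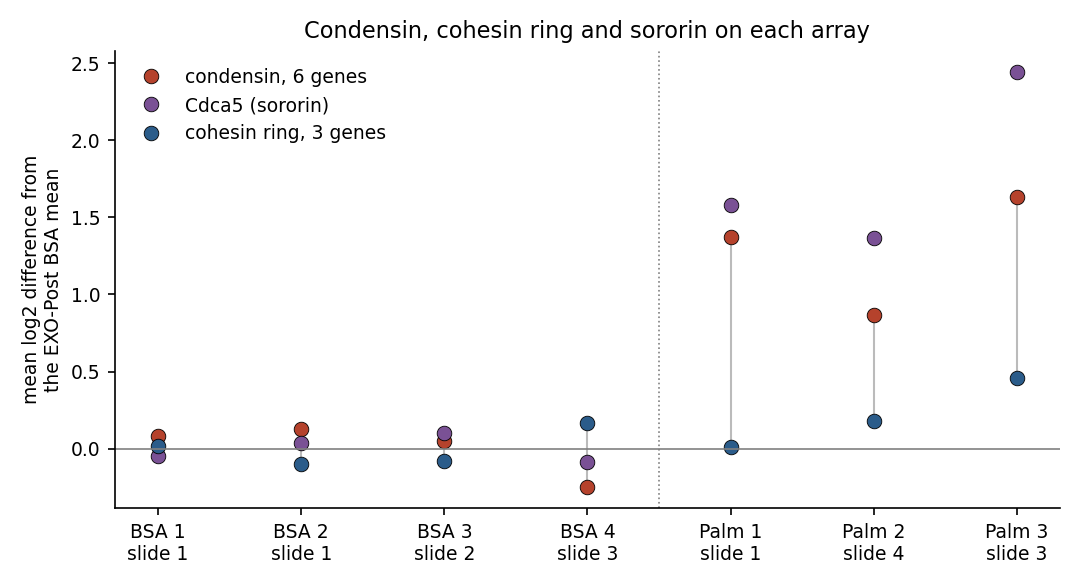
Mean log2 difference from the EXO-Post BSA mean on each array for the 6 condensin genes (red), the 3 cohesin ring genes (blue) and Cdca5 alone (purple), with a grey line from the ring to condensin; EXO-Post BSA replicate 3 has 5 condensin genes because the Smc4 spot was left out. On the EXO-Post Palm arrays condensin lies 0.68 to 1.37 above the ring, and on the EXO-Post BSA arrays it lies between 0.42 below and 0.23 above it.

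Array by array, condensin and the ring parted on each EXO-Post Palm array. After each probe was centred on its EXO-Post BSA mean, the mean of the condensin genes was 0.08, 0.13, 0.05 and -0.25 with EXO-Post BSA and 1.38, 0.86 and 1.64 with EXO-Post Palm. The ring mean was 0.02, -0.10, -0.08 and 0.17 with EXO-Post BSA and 0.01, 0.18 and 0.46 with EXO-Post Palm. Without Ncapg the condensin means were 0.04, 0.14, -0.05 and -0.13 with EXO-Post BSA and 1.34, 0.88 and 1.69 with EXO-Post Palm. With or without Ncapg, the condensin means did not overlap between the groups, the ring means did, and EXO-Post Palm replicate 3 had the highest mean of both families. Condensin minus ring was therefore 0.06, 0.23, 0.13 and -0.42 with EXO-Post BSA and 1.37, 0.68 and 1.18 with EXO-Post Palm, as the plot of means by array shows. Within slide 1 the 6 condensin genes differed by 0.65 (Smc4) to 1.52 (Ncapg2) and the ring genes by -0.20 (Smc1a) to 0.22 (Smc3). Within slide 3 condensin differed by 1.06 (Smc4) to 2.59 (Ncapg2) and the ring by 0.07 (Smc1a) to 0.54 (Smc3). On both slides each condensin gene thus had a larger difference than any ring gene. These slides leave out EXO-Post BSA replicate 3 and EXO-Post Palm replicate 2. Over all arrays the order did not hold, as Smc3 of the ring differed by 0.62 and Smc4 of condensin by 0.60.

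EXO-Post Palm replicate 2 was the lowest of the 3 EXO-Post Palm arrays for all 7 of the condensin and sororin genes, and replicate 3 was the highest for 5 of them. Among the ring genes, replicate 1 was the lowest for Smc1a and Smc3 and replicate 2 for Rad21. Replicate 2 was also the lowest in 58.4% of the 476 tested probes with a difference of at least 1 and a value on every EXO-Post Palm array, so other probes shared this order, and the shares were not compared by a test. Replicate 2 was alone on its slide, and slide cannot be told apart from that array.

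**Figure D3:**
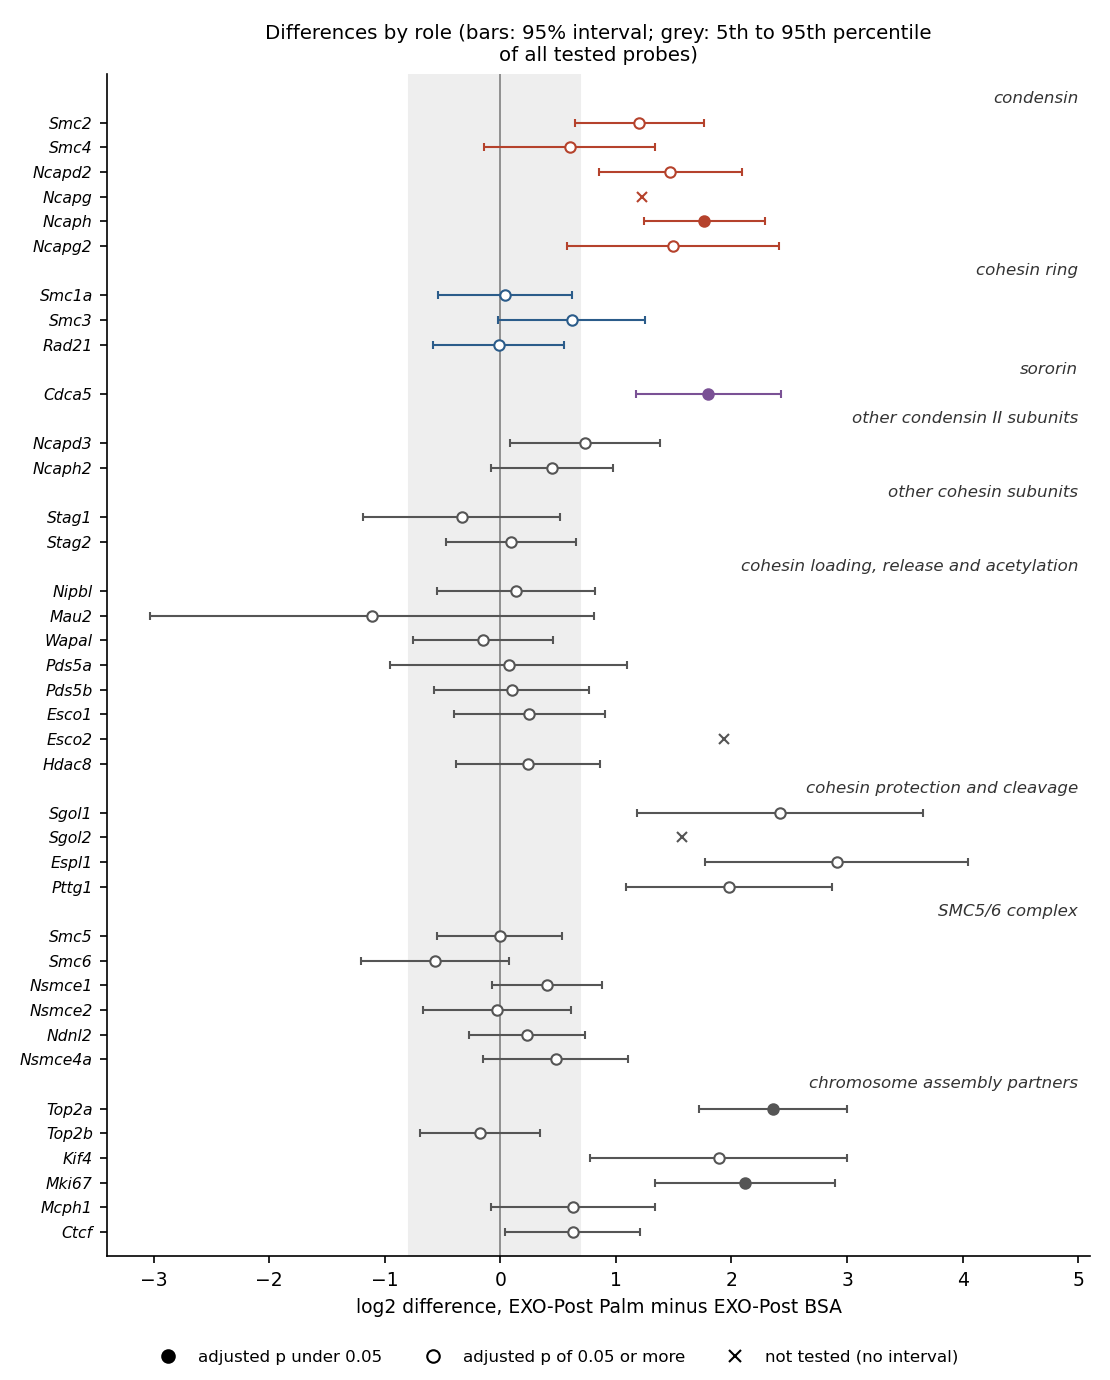
Log2 difference, EXO-Post Palm minus EXO-Post BSA, for the 10 genes and the other genes of the pathway ordered by role, with 95% intervals from limma, filled circles for an adjusted p under 0.05, crosses for genes not tested and a grey band from the 5th to the 95th percentile of all tested probes (-0.79 to 0.69). Filled circles mark Ncaph, Cdca5, Top2a and Mki67. The differences of Smc4 of condensin, of the ring genes Smc1a, Smc3 and Rad21 and of the SMC5/6 genes lie in the band. So do those of other pathway genes, among them Ncaph2. The meiotic cohesin genes are not drawn.

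Beyond the 10 genes, 32 genes that build, load, protect, cut or work beside these complexes were read from the same fit. Of the 27 tested, Top2a and Mki67 rose and none fell, where 0.463% of all probes tested were higher and 0.0695% lower. At an unadjusted p under 0.05, 8 were higher and none lower, where 4.85% of all probes were higher. The 8 include Espl1, which entered the test through its signal with EXO-Post Palm and without which they are 7. The median difference over all 32 was 0.23. Topoisomerase IIα, coded by Top2a, untangles chromatids and is a main part of the mitotic chromosome scaffold. Its signal was -2.05, -1.96, -2.22 and -2.67 with EXO-Post BSA and 0.34, -0.39 and 0.46 with EXO-Post Palm, a rise of 2.36 (interval 1.72 to 3.00, 5.14-fold, adjusted p = 0.0141). The groups were far apart, and the call was lost without EXO-Post Palm replicate 1 (adjusted p = 0.0697) or replicate 3 (adjusted p = 0.078). Top2b, the form of the enzyme that resting cells use, differed by -0.18 (interval -0.70 to 0.35, adjusted p = 0.835). Mki67 codes for Ki-67, which coats mitotic chromosomes, and its brighter probe read 0.50, 0.43, 0.08 and -0.29 with EXO-Post BSA and 2.39, 1.58 and 2.91 with EXO-Post Palm. It rose by 2.12 (adjusted p = 0.0436) with no overlap between the groups. The other Mki67 probe gave 1.77 (adjusted p = 0.0701), and the call held with 1 of the 7 arrays left out in turn, EXO-Post Palm replicate 2, the adjusted p being 0.0728 to 0.165 without any other. Kif4, a chromosome motor that works with condensin I, differed by 1.89 (interval 0.77 to 3.00, adjusted p = 0.205).

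The partners of cohesin are taken by role. Of the genes that guard or cut cohesin at mitosis, Sgol1, Sgol2, Espl1 and Pttg1, none passed by limma. Espl1, which codes for separase, read -5.08, -4.07, -4.07 and -5.55 with EXO-Post BSA, where it was well above background on 1 array, and -1.73, -2.69 and -0.91 with EXO-Post Palm. It reached the test only because it was well above background on all 3 EXO-Post Palm arrays, so its difference of 2.91 (adjusted p = 0.053) is given as a description. Pttg1 codes for securin, the inhibitor of separase, and differed by 1.98 (interval 1.09 to 2.87, adjusted p = 0.0862). Sgol1, whose product shugoshin guards centromeric cohesin, differed by 2.42 (interval 1.19 to 3.65, adjusted p = 0.136), and for the tested probes of Pttg1 and Sgol1 the groups did not overlap. A further Pttg1 probe, well above background on 2 arrays of each group and not tested, differed by 0.78, and on it the groups overlapped. Sgol2 was not tested and its means differed by 1.57.

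Of the genes that load, release or acetylate cohesin, 7 were tested, and by limma none passed and none had an unadjusted p under 0.05. The loader gene Nipbl differed by 0.13. Mau2, the other loader gene, found on the array under an older name, differed by -1.11 (interval -3.03 to 0.81), a value set by EXO-Post Palm replicate 2, where it read -5.17 and was not well above background. Without that array it differed by 0.11. Wapal of release differed by -0.15, Pds5a by 0.07 and Pds5b by 0.10. The acetyltransferase gene Esco1 differed by 0.25 and the deacetylase gene Hdac8 by 0.24. Esco2, the acetyltransferase gene of S phase, was above background on 1 array of EXO-Post BSA and on 2 of EXO-Post Palm and was not tested. It read -6.34, -4.65, -5.76 and -5.99 with EXO-Post BSA and -3.38, -4.25 and -3.62 with EXO-Post Palm, without overlap. The STAG subunits, which clasp the ring, differed by -0.33 for Stag1 (adjusted p = 0.803) and 0.09 for Stag2 (adjusted p = 0.928), and a further Stag1 probe by 0.13 (adjusted p = 0.914). Of the meiotic forms, Smc1b, Stag3 and Rad21l were above background on no array, and Rec8 differed by -0.56 (adjusted p = 0.664).

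The SMC5/6 complex, the third SMC family and a DNA repair machine, served as a further comparison. All 6 of its genes were tested, and none passed by limma or had an unadjusted p under 0.05. By their brightest probes the median difference was 0.11, between -0.57 for Smc6 (interval -1.20 to 0.07) and 0.48 for Nsmce4a (interval -0.15 to 1.11). A further Nsmce2 probe gave -0.68 (limma adjusted p = 0.721) and a further Smc5 probe 0.45 (limma adjusted p = 0.773). Smc5 read 2.38, 2.70, 2.17 and 2.19 with EXO-Post BSA and 2.57, 1.99 and 2.51 with EXO-Post Palm, which overlap. Ctcf, whose product halts cohesin at loop anchors, differed by 0.63 (adjusted p = 0.471), and Mcph1, which restrains condensin II, by 0.63 (adjusted p = 0.554).

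Among tested genes outside these lists, the closest to the mean of the 6 condensin genes over the 7 arrays were Cenpl (Pearson's r = 0.996), Mxd3 (0.994), Pi15 (0.994), Swap70 (0.992) and Cenpe (0.989). This likeness is a description over 21071 probes searched, all read on the same 7 arrays, whose 2 groups set most of the range. CENP-L belongs to the inner kinetochore and CENP-E is a kinetochore motor. Cenpe rose by 2.39 (adjusted p = 0.0108), as did Mxd3 by 2.84 (adjusted p = 0.0436) and Pi15 by 2.60 (adjusted p = 0.015), whereas Cenpl at 1.13 (adjusted p = 0.0925) and Swap70 at 0.75 (adjusted p = 0.207) did not pass.

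Marker genes of other cells were read beside these results. By their brightest probes none of the 9 myotube markers passed by limma or had an unadjusted p under 0.05, with a median difference of -0.08 and a range of -0.46 (Myh3) to 0.35 (Ckm). A further Myh3 probe differed by -0.57 (unadjusted p = 0.0371, adjusted p = 0.464 by limma), and on both Myh3 probes every EXO-Post Palm array lay below every EXO-Post BSA array. Of the myoblast markers, Ccnd1, which codes for cyclin D1 and is also a gene of proliferating cells, rose by 1.77 (adjusted p = 0.0421), a call lost when any 1 array was left out (adjusted p = 0.0528 to 0.157). Pax7, Myod1, Id1 and Id3 differed by -0.21 to 0.35 and did not pass. The summed signal of 5 macrophage markers was 1.72 to 2.22 times the 75th percentile with EXO-Post BSA and 2.48 to 4.05 times with EXO-Post Palm. Of these, Cd14 differed by 1.05 (adjusted p = 0.219), while Ptprc was above background on 1 array of each group and Cd68 on 1 EXO-Post BSA array. Csf1r, the brightest of the 5, differed by 0.45 (adjusted p = 0.613 by limma) and its further probes by -0.05 and -0.26. Emr1 differed by 0.58 (adjusted p = 0.689 by limma) and its further probe by -0.05. Adipocyte markers summed to 0.0773 to 0.155 with EXO-Post BSA and 0.0949 to 0.121 with EXO-Post Palm, and Cfd was above background on no array. Endothelial markers summed to 4.15 to 5.28 and 3.05 to 6.20, and Cdh5 and Tek were above background on no array. The part of Ccnd1-expressing or other cells in the condensin values was not tested.

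**Figure D4:**
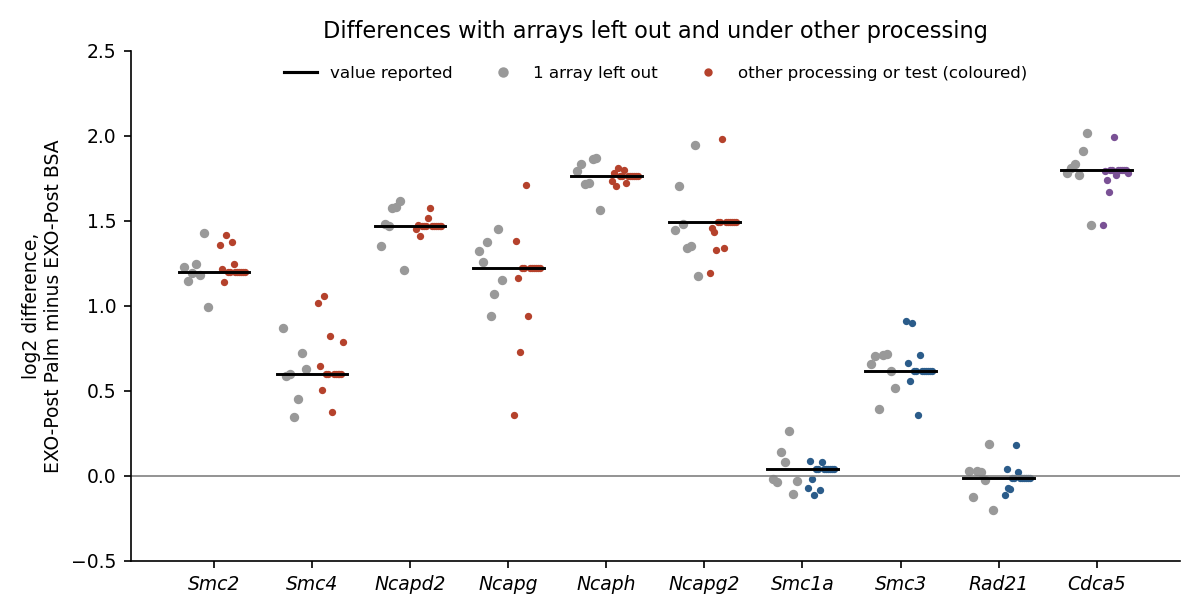
Log2 difference of each of the 10 genes as reported (black line), with each array left out in turn (grey points) and under the other processing and tests (coloured points, red for condensin, blue for the ring, purple for Cdca5). Every point of Smc2, Ncapd2, Ncapg, Ncaph, Ncapg2, Smc4, Smc3 and Cdca5 is above 0, and the points of Smc1a and Rad21 lie on both sides of 0, between -0.20 and 0.27.

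Of 21 other settings, shown in the plot of alternatives, 7 changed the filter, the variance, the test or the probes of other genes. The members' differences shown for these 7 are the reported ones. Slide as a random block is among them and was read for its p-values only. Its fit moved the median of all tested probes to -0.0200, and its own differences for the members are not given here. In the other 14, of which the replicate block gave the same differences as leaving out EXO-Post BSA replicate 4 for every member but Smc4, the direction held for all 6 condensin genes, Smc3 and Cdca5. The difference stayed between 1.57 and 1.87 for Ncaph, 1.21 and 1.62 for Ncapd2, 0.99 and 1.43 for Smc2, 1.17 and 1.98 for Ncapg2, and 1.47 and 2.01 for Cdca5. Dim Ncapg ranged more widely, from 0.36 to 1.71, and Smc4 from 0.34 to 1.05. The adjusted p passed 0.05 in 14 of 20 such settings for Ncaph, 10 for Cdca5, 5 for Smc2, 3 for Ncapd2, 1 for Ncapg2, none of the 2 that tested Ncapg, and none for Smc4, Smc1a, Smc3 or Rad21.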

How the data were processed

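RNA of C2C12 cells given EXO-Post BSA (4 arrays) or EXO-Post Palm (3 arrays) was read on Agilent 4x44K v2 arrays. The authors deposited the scanner software's processed intensity for each spot, background-subtracted and not normalised between arrays, with Feature Extraction 10.7.3.1 in the file headers and 11.5.1.1 for EXO-Post BSA replicate 3, while the submitters' processing notes name version 9.1 and limma. They also deposited a table of log2 values with the same distribution on each array, whose rows were joined to the spots by order and whose scale and centring are not described. It was used as an alternative.

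The log2 of the processed intensity was centred per array, on the 75th percentile over 43020 spots other than controls. Spots marked as uneven or as outliers were left out, no spot was saturated, and spots of 1 probe were averaged. The 21589 probes that the software called well above background on 75% or more of a group's arrays were tested. Groups were set against each other by limma 3.58.1 under R 4.3.3 (2-sided, Benjamini-Hochberg over all tested probes, threshold 0.05), and single probes with exact permutation over the 35 partitions of the arrays. Where a gene had several probes, the brightest tested probe stands for it. The number of arrays limits the precision. The named genes are the 10 members, every gene of the pathway and marker lists, and the 5 genes most like the condensin mean. Members and lists were chosen with earlier results of these data known. Promoter words were searched in the RefSeq table on GRCm38.p6, and probe positions are on mm9, so exon and UTR annotation was not used here. The accession of each of the 10 probes matched its symbol in the reference gene table.

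Alternatives covered the background correction (normexp with an offset of 50, on median spot intensities because the mean was not in every file), the normalisation, the authors' table, the probe filter, slide, replicate number, variance model, the methods' t-test, the probe of a gene and each array left out. Keeping the marked spots was added after seeing the data.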

Additional observations from a re-analysis of the deposited data

Results flagged for a closer look

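The 35 tested members and pathway genes with a value on all 4 EXO-Post BSA arrays were each checked for an array far from the other EXO-Post BSA arrays. Of these, 2 (5.71%) had such an array, where chance marks about 5%. Smc3 read 1.03 on EXO-Post BSA replicate 3, and 1.82 to 1.98 on the others. Without that array the Smc3 difference was 0.39 (limma adjusted p = 0.606). That array was alone on its slide and its file names a newer release of the scanner program, and the part of either in the value was not tested. Rad21 read 3.30 on EXO-Post BSA replicate 2, and 3.74 to 3.77 on the others. Without that array the Rad21 difference was -0.13 (limma adjusted p = 0.884).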

How the results depend on the processing

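The condensin median (1.35), the cohesin ring median (0.04) and their difference (1.30) moved by less than the spread between arrays in all settings that kept the 7 arrays. They lay between 1.27 and 1.62 for condensin, -0.08 and 0.18 for the ring and 1.30 and 1.45 for the difference. In 7 of these settings the members' differences were the reported ones, so these values could not move. Median centring could not move the difference between the families. With an array left out the medians and their difference were 1.16 to 1.53, -0.0372 to 0.265 and 1.00 to 1.41. The count of members past the threshold (2) depended on the setting. It was 0 without a probe filter, with slide as a block and by the methods' t-test after Benjamini-Hochberg, 4 with only the probes well above background on all 7 arrays or with a trended and robust variance, and 5 by the methods' t-test without adjustment. Limma without adjustment gave 5. The count of pathway genes (2) was 0 without a filter and by the adjusted t-test, 4 with median centring, the authors' table, slide as a block, slide as a random block or the trended and robust variance, and 7 by the unadjusted t-test. With an array left out, 0 to 4 members and 0 to 5 pathway genes passed. Fewer probes are tested under the stricter filter and more without one, which changes the adjustment.

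Smc1a turned to -0.0745 with normexp, -0.0179 with median centring, -0.11 in the authors' table and -0.0835 with slide as a block, and was -0.11 to 0.27 with an array left out. Rad21 turned to 0.0396 with quantile normalisation, 0.18 with slide as a block and 0.0214 with the replicate block, and was -0.20 to 0.19 with an array left out. The cause was not tested.

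The labels number the replicates of both groups, but do not say that a number marks a shared batch, and the deviations of same-numbered arrays correlated at 0.122, -0.150 and -0.148, so the numbers were not taken to pair the arrays. With the replicate block, which sets aside EXO-Post BSA replicate 4, 0 members and 0 pathway genes passed by limma, Ncaph differed by 1.72 (adjusted p = 0.189) and Cdca5 by 1.77 (adjusted p = 0.177). The condensin median was then 1.29, the ring median 0.08 and their difference 1.21.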
